A study of Caenorhabditis elegans with 8 samples.

Results

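A total of 97 *C. elegans* genes that carry no name beyond their sequence name, such as C40H1.8, had a higher share of the read count in every population grown with urolithin A (UA) than in every control population. They were chosen on CPM, the count of a gene divided by the total of its library and multiplied by 1000000. The rule required a mean CPM of at least 1 over the 8 libraries, a lowest UA value above the highest control value, and a mean UA CPM of at least 1.3 times the mean control CPM. The 97 genes are 2.48% of the 3915 genes known by sequence name at a mean CPM of at least 1, and the table holds 46928 genes in all. The same rule was met by 205 of all 10940 genes at that level, or 1.87%, of which 108 have a given name. Without the threshold on the ratio, the lowest UA value lay above the highest control value in 384 of the 10940 genes, or 3.51%. Turned round, the rule with its ratio found 18 of the 3915 genes known by sequence name (0.46%) lower with UA, and 56 of all 10940 genes (0.512%). Since the values of all 8 libraries chose the 97 genes, the UA and control values below describe them and test nothing.

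The treated populations were N2 nematodes, the wild type, given 50 μM UA, a compound that gut microbes make from ellagitannins of pomegranates, nuts and berries, and the control populations were wild-type N2 nematodes propagated in parallel without it. Each condition had 4 age-synchronized populations, and each population gave 1 library of poly(A) mRNA from a pool of whole animals. The age at harvest is given as day 4 of adulthood, after treatment from the L4 larval stage, in the description deposited with the data, and as day 1 of adulthood in the methods of the study. The total count per library was between 41890058 and 43055719, so that 1 CPM stood for 41.9 to 43.1 counts. In RNA from whole animals, a change in the number of cells that express a gene and a change in the RNA of each cell cannot be told apart.

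A sequence name in *C. elegans* gives the clone of the genome project on which a gene model lies and the number of the gene on that clone, so that neighbouring genes often share the first part of their names. Such a name stays in use until a mutant, a homolog or a function gives the gene another one. Many of these genes belong to families that expanded in nematodes by local duplication, and their copies often lie side by side. The arms of the autosomes, and chromosome V above all, are known for such families.

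Libraries with the replicate numbers 1 and 2 stood apart from those with the numbers 3 and 4 in both conditions. An example is *hsp-16.2*, a small heat-shock protein gene next to Y46H3A.5, which had 28.3, 29.6, 6.35 and 6.71 CPM in UA replicates 1 to 4, against 27.1, 25.7, 6.18 and 5.93 CPM in control replicates 1 to 4. The labels give no reason for this split, and the values of the 97 genes are given within each pair of replicates further on. None of the 11 lists of cell type and stage markers separated the conditions. The summed level of the 8 intestinal markers found ranged over 224.9 to 240.4 CPM in UA libraries and over 170.1 to 247.8 CPM in control libraries, and that of the 7 hypodermal markers over 231.8 to 260.0 CPM in UA libraries and over 251.9 to 297.5 CPM in control libraries. One intestinal marker met the rule of the 97 genes, *elt-2*, the GATA factor of the intestine, at a ratio of 1.55. The other intestinal markers found did not meet it and had ratios between 0.90, in *ifb-2*, and 1.22, in *elt-7*. The part of cell type shares in the values below was not tested.

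The ratio of mean UA to mean control CPM was between 1.3 and 3.49 in the 97 genes, with a median of 1.49. For comparison, the median ratio was 1.01 over all genes known by sequence name and 1.004 over all genes at a mean CPM of at least 1. A ratio of at least 1.5 was seen in 48 of the 97 genes, a ratio of at least 2 in 14, and a ratio of at least 2.5 in 5.

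The highest ratio belonged to H39E23.3, a single-exon gene on chromosome V that codes for 746 residues. It had 4.07, 1.81, 2.15 and 1.63 CPM in UA replicates 1 to 4, against 0.989, 1.45, 0.139 and 0.188 CPM in control replicates 1 to 4. The ratio of 3.49 thus owed most to control replicates 3 and 4, which held 6 and 8 counts of this gene, and to UA replicate 1, which held 174. The log2 fold change fitted by edgeR was 1.8 with a standard error (SE) of 0.60, the largest SE among the 97 genes.

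The next genes were more even. C40H1.8, a chromosome III gene of 342 residues, had 4.58, 4.23, 4.82 and 3.77 CPM with UA, against 1.6, 1.08, 1.49 and 1.69 CPM in controls, so that its lowest UA value was 1.15 above its highest control value on the log2 scale. This was the widest gap of all 97 genes. K09C4.5, a chromosome X gene of 524 residues in 16 exons, had 4.86, 3.77, 3.63 and 3.21 CPM with UA, against 1.41, 1.64, 0.929 and 1.6 CPM in controls, with a gap of 0.97. Both genes had every UA library well above every control library, and their mean ratios were 2.97 and 2.77.

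F47E1.2, a chromosome X gene of 744 residues, had 15.5, 13.3, 13.8 and 8.34 CPM with UA, against 5.16, 5.72, 2.51 and 5.51 CPM in controls. UA replicate 4 was the lowest UA library of this gene and control replicate 3 was the lowest control library. Y46H3A.5, the neighbour of *hsp-16.2*, had 4.26, 3.09, 2.75 and 1.84 CPM with UA, against 1.13, 1.31, 0.975 and 1.32 CPM in controls. Its control values lay close together in all 4 libraries, whereas the *hsp-16.2* values split by replicate number.

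C29F7.2, on chromosome X, was the most abundant per length of the 12 genes with the highest ratios, at 16.7 TPM. It had 24.1, 24.0, 20.8 and 19.3 CPM with UA, against 8.57, 9.56, 12.7 and 10.7 CPM in controls. Its mean was 22 ± 2.36 CPM with UA and 10.4 ± 1.79 CPM in controls (SD, n = 4 each), so that relative to the mean its UA values were more even than its control values. Y41G9A.5, also on chromosome X, was more uneven, with 9.73, 6.77, 6.33 and 5.05 CPM with UA, against 4.52, 4.26, 1.14 and 2.49 CPM in controls. Its lowest UA value lay just above its highest control value. T19C9.8, on chromosome V, had 2.78, 3.53, 1.69 and 2.72 CPM with UA, against 1.67, 1.38, 1.23 and 0.824 CPM in controls, and its groups were separated by 0.02 on the log2 scale.

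**Figure D1:**
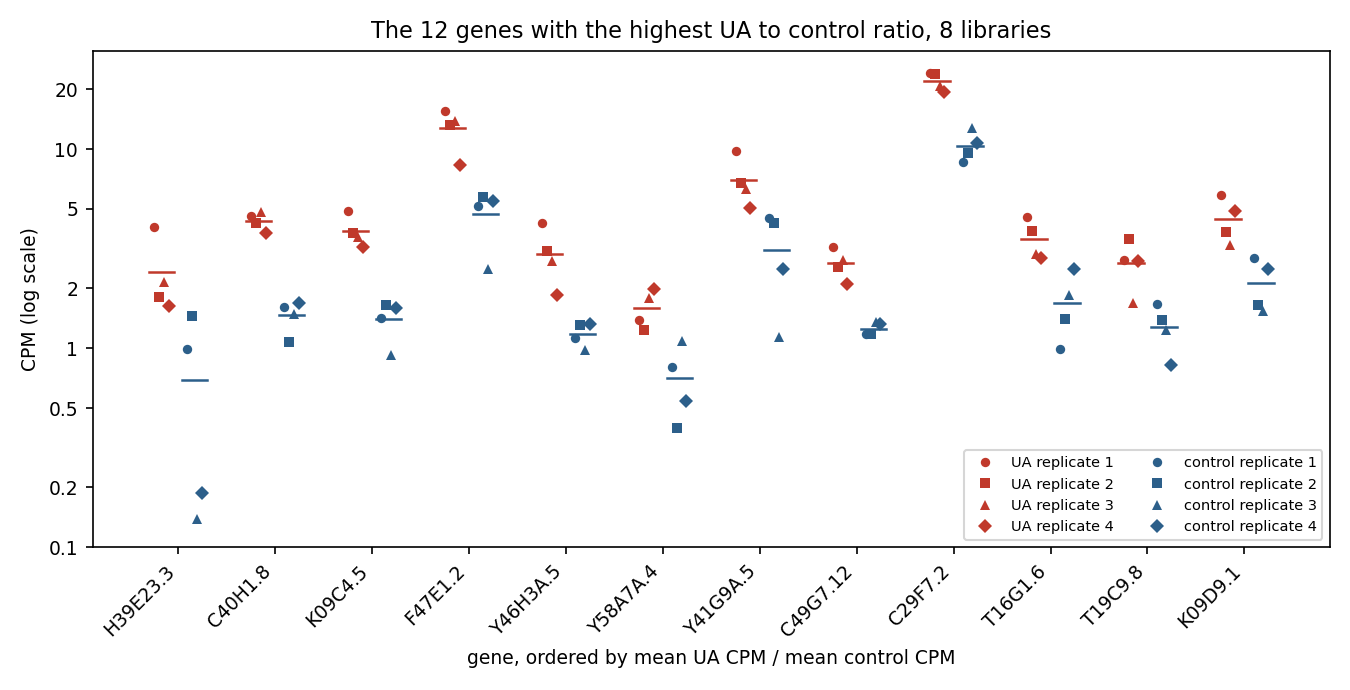
CPM (log scale) of the 12 genes with the highest ratio of mean UA to mean control CPM, each point 1 library, UA to the left of control, and lines at the mean of each condition. The ratios run down to 2.10, at K09D9.1, and the conditions lie closest together in T19C9.8 and farthest apart in C40H1.8.

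The separation was narrow in many of the other genes. The gap between the lowest UA and the highest control value was under 0.1 on the log2 scale in 42 of the 97 genes and at least 0.3 in 16, with a median of 0.13. In most genes the counting intervals of the nearest libraries overlapped. The exact Poisson 95% interval of the count in the lowest UA library stood clear of that in the highest control library in 16 genes. Among them were C40H1.8, K09C4.5, F47E1.2, C29F7.2, C49G7.10, Y58A7A.3, T19B10.2 and C17F4.7. The rule had already set the lowest UA library above the highest control library in all 97 genes. These intervals were not computed for other genes, so the 16 have no share over all genes to be read against. T19B10.2, on chromosome V, had 44.4, 31.9, 28.8 and 28.6 CPM with UA, against 21.6, 22, 14.5 and 20.7 CPM in controls. These intervals cover counting error only and take every count as independent. Some genes, such as C40H1.8 and K09C4.5, had even counts in all 8 libraries. If both reads of a fragment were counted, the intervals are too narrow and 16 genes is an upper limit.

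The genes just inside the ratio threshold were F54D11.3, at 1.302, ZC328.3, at 1.303, and M163.1, at 1.31. Just outside it were M60.6, at 1.297, and Y69A2AR.12 and F28H6.6, both at 1.298, whose UA values also all lay above their control values. M163.1 had 15.3, 17, 15.7 and 15.3 CPM with UA, against 11.9, 9.98, 11.1 and 15.2 CPM in controls, and control replicate 4 came within 0.0006 of the lowest UA library on the log2 scale. Near the level threshold, Y32G9A.13, C23H4.8 and T16A9.3 were inside, at mean levels of 1.04, 1.05 and 1.09 CPM, and F22E5.13, F58E1.13 and F20H11.4 were outside, at 0.970, 0.967 and 0.8 CPM. Leaving out 1 library makes the rule easier to meet, since fewer values must lie apart. The count was then 149 genes without UA replicate 4 and 154 genes without control replicate 4, of which 93 and 94 were among the 97.

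Most of the 97 genes were weakly expressed. Their mean level over the 8 libraries was between 1 and 2 CPM in 18 genes, between 2 and 5 CPM in 40, between 5 and 10 CPM in 14, between 10 and 100 CPM in 23 and above 100 CPM in 2. In TPM, the count per base of exon scaled so that each library sums to 1000000, the median of the 97 genes was 4.17, against 13.6 for all genes known by sequence name and 24.3 for all genes at a mean CPM of at least 1. The lowest count of any of the 97 genes was 48 in a UA library and 6 in a control library.

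The share of genes that met the rule fell with the level in named and in unnamed genes. Between 1 and 10 CPM, 72 of 1875 genes known by sequence name met it (3.84%), as did 78 of 2108 genes with a given name (3.7%). Between 10 and 100 CPM the shares were 1.42% of genes known by sequence name and 0.837% of genes with a given name, and at 100 CPM or more they were 0.475% and 0.293%. Genes known by sequence name are weaker on the whole. Within the lowest band the shares of both kinds were nearly the same, whereas in both higher bands the share was larger in genes known by sequence name. The part of the level in these shares was not tested.

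C17F4.7 stood far above the rest. This chromosome II gene codes for 186 residues in 2 exons and, at 3445 TPM, was the second most abundant of all genes known by sequence name. It had 1922, 2038, 2302 and 2330 CPM in UA replicates 1 to 4, against 1449, 1495, 1273 and 962 CPM in control replicates 1 to 4. The UA libraries were thus higher in replicates 3 and 4 and the control libraries were lower in them, so that the ratio on the log2 scale was 0.43 in replicates 1 and 2 and 1.05 in replicates 3 and 4. The fitted log2 fold change over all libraries was 0.73 with an SE of 0.13.

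This single gene held more counts than all the others together in every library. Summed over the 97 genes, the UA libraries held 3215, 3256, 3380 and 3423 CPM and the control libraries 2284, 2314, 2001 and 1780 CPM. Without C17F4.7, the sums were 1293, 1219, 1078 and 1093 CPM in UA libraries, against 835.3, 818.6, 727.3 and 817.4 CPM in control libraries. The UA sums thus ran higher in replicates 3 and 4 than in 1 and 2 with C17F4.7, and lower without it.

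F37C4.5, a chromosome IV gene of 556 residues, came next, at 162 TPM. It had 291, 262, 210 and 223 CPM with UA, against 209, 201, 149 and 167 CPM in controls. The lowest UA value, in replicate 3, lay just above the highest control value, in replicate 1, whereas within each replicate number UA was clearly the higher one. C39E9.8, at 73.6 TPM, had 65.9, 58.3, 69.4 and 62.7 CPM with UA, against 57.2, 56.4, 25.6 and 56 CPM in controls. Its ratio of 1.31 rested on control replicate 3, since the other control libraries came close to the lowest UA library.

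F53B2.8, at 70.5 TPM, had 57.7, 57.7, 45.1 and 57.2 CPM with UA, against 34.3, 39.4, 42.3 and 42.7 CPM in controls. F17C11.11, at 50.3 TPM, had 47.4, 38.5, 37.7 and 46.2 CPM with UA, against 29.1, 22.8, 23.7 and 29.1 CPM in controls. C18B2.4, at 49.6 TPM, had 52.5, 51.6, 41.6 and 41.7 CPM with UA, against 38.1, 34.6, 35.3 and 33.9 CPM in controls. Among these, F17C11.11 had the wide gap of 0.37 on the log2 scale and the others gaps of 0.08 and 0.13. W04B5.3, at 36.9 TPM, had 61.9, 72.6, 49.9 and 47.3 CPM with UA, against 41.8, 37, 44.8 and 44.3 CPM in controls, and its conditions came close together in replicates 3 and 4.

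**Figure D2:**
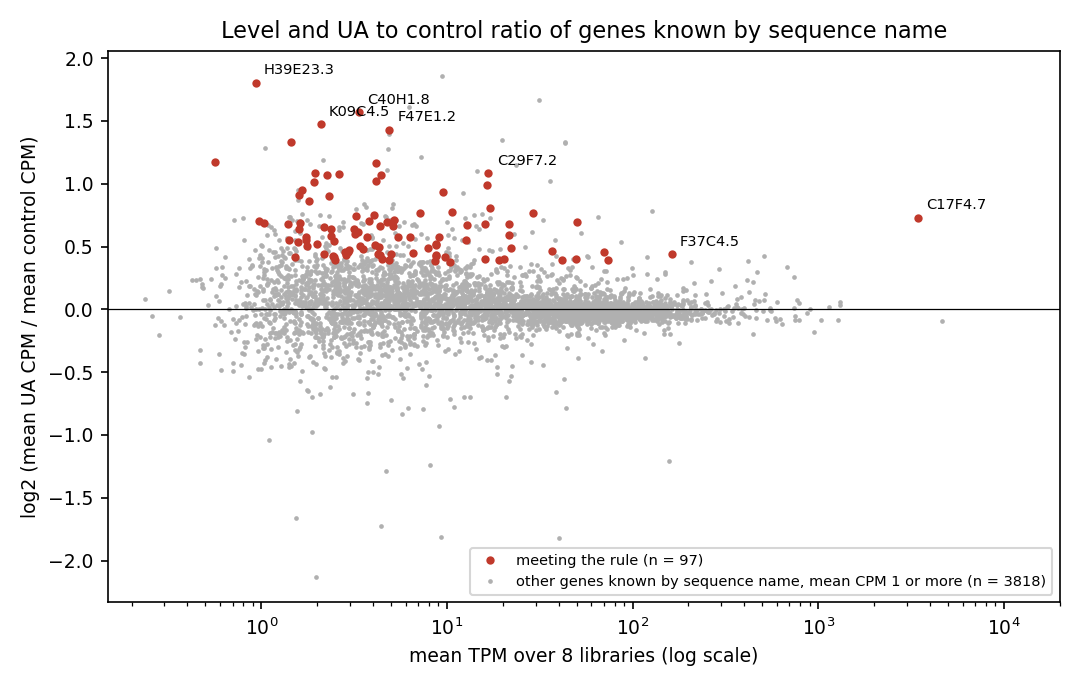
Mean TPM over 8 libraries (log scale) against the log2 ratio of mean UA to mean control CPM, for the 97 genes that met the rule and for the 3818 other genes known by sequence name at a mean CPM of at least 1. C17F4.7 lies alone at the right, and the highest ratios lie among genes of low level, where the other genes scatter widely too.

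The fit of edgeR over the 13720 genes tested gave the 97 genes log2 fold changes between 0.37 and 1.8, with a median of 0.57 and a median SE of 0.17, against a median of 0.00 over all genes tested. The study's methods set a fold change over 1.2 at a p under 0.05 without adjustment, and by these limits edgeR called 94 of the 97 genes, where 4.12% of all genes tested were called as higher. At a Benjamini-Hochberg adjusted p under 0.05, edgeR called 3 of the 97 genes, where 0.0656% of all genes tested were called as higher. The count of 3 became 0 without UA replicate 1 or without control replicate 1, and 1 without UA replicate 2, 3 or 4 or without control replicate 2 or 4. With the replicate number as a block, which pairs each UA population with the control population of its number, edgeR called 16 of the 97 genes at an adjusted p under 0.05 (0.554% of all genes tested) and 92 of them by the study's limits (5.5% of all genes tested). DESeq2 called 38 of them at an adjusted p under 0.05 (0.918% of all genes tested) and 92 by the study's limits (4.17% of all genes tested). Since the same contrast chose the genes, these counts are no evidence about them.

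Within the 2 pairs of replicates the size of the ratio differed. The log2 ratio of UA to control had a median of 0.67 in replicates 1 and 2 (range 0.13 to 1.81) and of 0.51 in replicates 3 and 4 (range 0.13 to 3.53). It was larger in replicates 1 and 2 in 64 of the 97 genes (66.0%) and in 41.6% of all genes known by sequence name. The medians by replicate number were 0.71, 0.61, 0.60 and 0.45 for replicates 1 to 4. In UA libraries 68 of the 97 genes were lower in replicates 3 and 4 than in 1 and 2, and in control libraries 48 of them were, whereas 61.6% and 67.8% of all genes known by sequence name were lower.

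In 4 genes the log2 ratios of the pairs were 1 or more apart, and these were named after their values were seen. H39E23.3 had 1.27 in replicates 1 and 2 and 3.53 in replicates 3 and 4. T16G1.6 had 1.81 in replicates 1 and 2 and 0.41 in replicates 3 and 4, T16G1.4 had 1.65 and 0.64, and C33D9.3 had 1.28 and 0.15. C33D9.3, on chromosome IV, had 3.18, 2.51, 2.15 and 2.14 CPM with UA, against 1.22, 1.12, 1.95 and 1.91 CPM in controls. The control libraries of this gene and of both T16G1 genes were lower in replicates 1 and 2 than in 3 and 4.

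**Figure D3:**
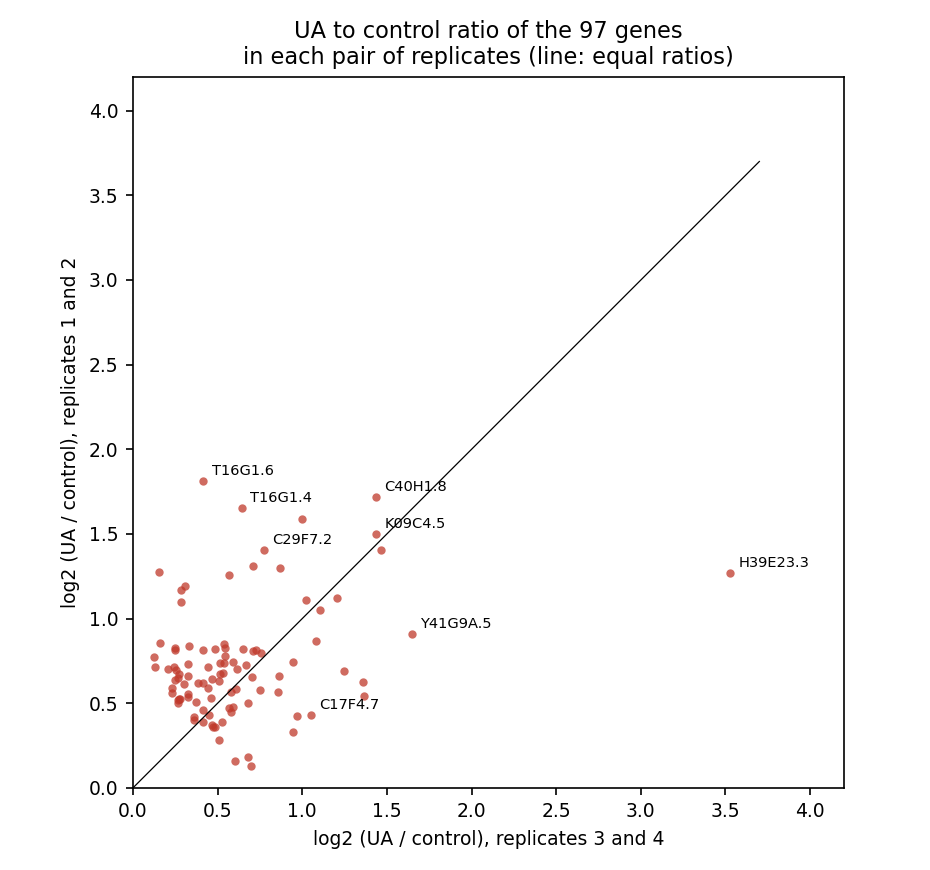
Log2 ratio of mean UA to mean control CPM of the 97 genes in replicates 1 and 2 (vertical axis) against replicates 3 and 4 (horizontal axis), each point 1 gene, with the line of equal ratios. Of the 97 genes, 64 lie above the line, and H39E23.3 lies far to the right at 3.53.

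The spread between libraries of the same condition was somewhat wider in the 97 genes than in other unnamed genes. The coefficient of variation had a median of 13.6% over the UA libraries and 14.9% over the control libraries, against medians of 10.5% and 12.1% over all genes known by sequence name, which are more abundant. UA replicate 1 was the highest UA library in 43 of the 97 genes and in 36.2% of all genes known by sequence name, and UA replicate 4 was the lowest in 37 and in 31%. Among controls, replicate 3 was the lowest in 34 of the 97 genes and in 38.2% of all genes known by sequence name, and replicate 4 was the highest in 30 and in 21.5%.

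By position, the 97 genes lay most often on chromosomes V and X, which the rule did not use. Chromosome V held 34 of them (35.1%), against 19.8% of all genes known by sequence name at a mean CPM of at least 1. Chromosome X held 23 (23.7%), against 14.8%. Chromosomes I and III held 6 (6.19%) and 8 (8.25%), against 15.6% and 15.7%. Among genes known by sequence name between 1 and 10 CPM, chromosome V held 22.7%, chromosome X 19.3%, chromosome I 13.3% and chromosome III 11.3%. The part of the level in these shares was not tested. On the autosomes, 37 of 74 genes (50%) lay outside the middle 50% of their chromosome, against 42.7% of all genes known by sequence name and 40.3% of all genes at that level. Neighbouring genes are not independent points in these shares.

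**Figure D4:**
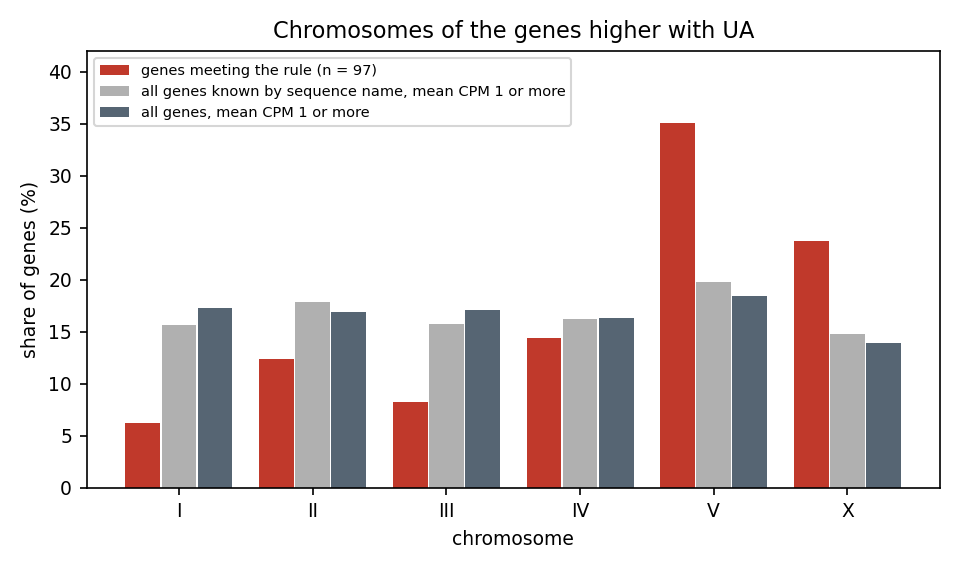
Share of genes (%) on each chromosome for the 97 genes that met the rule, for all genes known by sequence name and for all genes, the last 2 at a mean CPM of at least 1. The share of the 97 genes is 35.1% on chromosome V and 23.7% on chromosome X.

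Some of the 97 genes were neighbours. Another of the 97 genes lay within 10 kb in 14 of them (14.4%), whereas 93 of 3816 other nuclear genes known by sequence name at a mean CPM of at least 1 (2.44%) had one of the 97 that near. With named genes that met the rule counted as well, the shares were 19.6% and 4.69%. The 14 genes formed 6 groups, of which 5 lay on chromosome V. No gene that met the mirrored rule lay within 10 kb of any of the 97, but only 0.512% of all genes at that level met it. The same was not counted around other genes.

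The largest group held 4 genes, K09D9.1, C49G7.7, C49G7.12 and C49G7.10, within 16975 bases of chromosome V (WBcel235). Their predicted proteins were of nearly the same length, with 292, 303, 287 and 292 residues. K09D9.1 had 5.89, 3.81, 3.29 and 4.89 CPM with UA, against 2.85, 1.64, 1.53 and 2.49 CPM in controls. C49G7.7 had 1.5, 1.26, 1.62 and 2.70 CPM with UA, against 0.754, 0.890, 1.02 and 1.22 CPM in controls. These 2 genes differed in which UA library was highest, replicate 1 in K09D9.1 and replicate 4 in C49G7.7.

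C49G7.12 had 3.23, 2.56, 2.77 and 2.10 CPM with UA, against 1.18, 1.17, 1.35 and 1.32 CPM in controls, and so had one of the widest gaps, 0.64 on the log2 scale. C49G7.10 was the most abundant of the group per length, at 16.5 TPM. It had 15.2, 11.2, 14.8 and 20.7 CPM with UA, against 7.91, 6.56, 7.92 and 8.85 CPM in controls. Next to it lies *irg-2*, a gene of 278 residues named for its response to infection, which met the same rule. It had 4.42, 3.42, 6.78 and 7.45 CPM with UA, against 1.74, 1.78, 3.14 and 3.20 CPM in controls.

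The higher level did not extend to every gene of this stretch. The cytochrome P450 genes *cyp-35A3* and *cyp-35A4*, which lie on either side of K09D9.1, had ratios of 0.69 and 1.06, and *phat-3* and *phat-7*, beyond *irg-2*, had ratios of 1.06 and 0.75. The values of these 4 named genes overlapped between conditions.

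A second group on chromosome V lay among genes of the T16G1 clone. T16G1.6, of 431 residues, had 4.54, 3.86, 2.96 and 2.84 CPM with UA, against 0.989, 1.41, 1.86 and 2.49 CPM in controls. T16G1.4, of 424 residues, had 5.33, 5.30, 6.64 and 6.01 CPM with UA, against 1.98, 1.41, 3.76 and 4.33 CPM in controls. Between and beside them lie T16G1.5 and T16G1.7, of 434 and 436 residues, and all 4 genes have 7 exons.

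Those 2 neighbours did not meet the rule. T16G1.7 had 5.94, 6.65, 18.4 and 10.4 CPM with UA, against 5.04, 4.78, 14.3 and 16.6 CPM in controls, a ratio of 1.02. T16G1.5 had 0.748, 0.419, 2.01 and 1.3 CPM with UA, against 0.659, 1.97, 1.07 and 1.84 CPM in controls, a ratio of 0.81. In T16G1.7 the libraries split by replicate number in both conditions, whereas T16G1.6 showed that split in the opposite direction with UA. Genes with similar sequences can share reads, and how reads that match several genes were counted was not examined here.

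Y58A7A.3 and Y58A7A.4, of 883 and 904 residues in 6 exons each, formed another group on chromosome V. Y58A7A.3 had 18.0, 16.6, 20.3 and 19.7 CPM with UA, against 10.2, 9.51, 11.7 and 12.5 CPM in controls. Y58A7A.4 had 1.38, 1.23, 1.79 and 1.98 CPM with UA, against 0.801, 0.398, 1.09 and 0.541 CPM in controls. UA replicates 3 and 4 were the higher ones in both genes. Next to them, Y58A7A.5 had a ratio of 2.28, but its 1.29 and 1.35 CPM in UA replicates 1 and 2 fell below the 1.67 and 1.6 CPM of control replicates 3 and 4, and so it did not meet the rule.

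**Figure D5:**
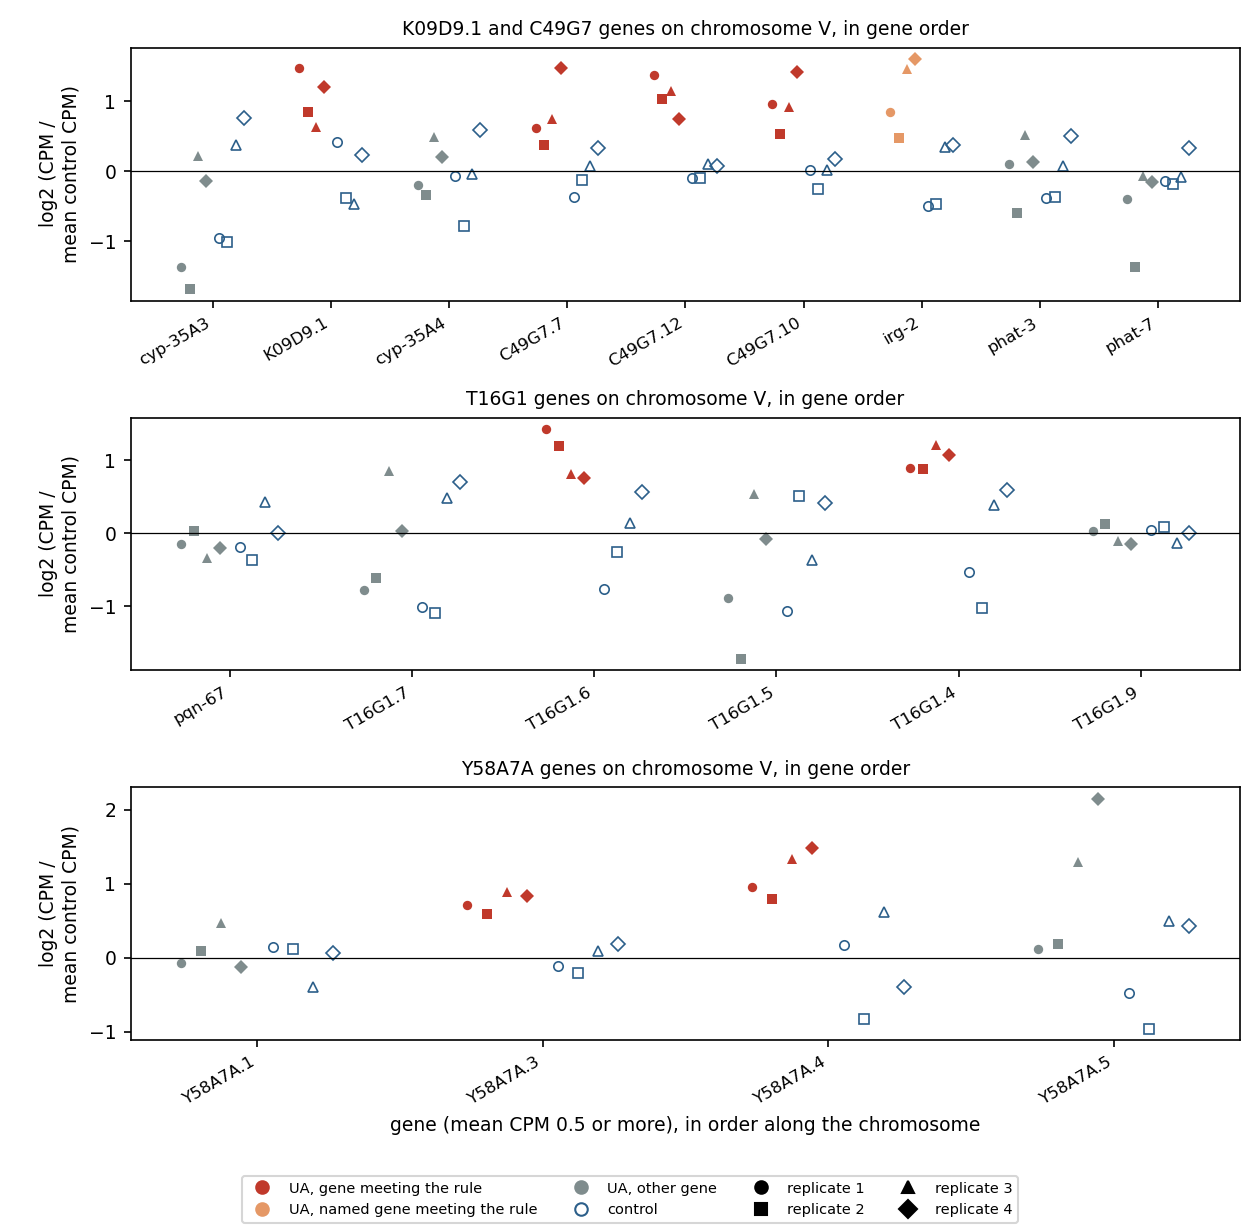
CPM of each library over the mean control CPM of the gene (log2 scale) for genes of 3 neighbourhoods on chromosome V, in their order along the chromosome, with UA libraries filled and left of the open control libraries. K09D9.1, the 3 C49G7 genes, T16G1.6, T16G1.4, Y58A7A.3, Y58A7A.4 and *irg-2* keep the conditions apart, and the other genes shown do not.

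The other 3 groups were pairs with little in common in length. K11G9.5, of 460 residues, had 3.7, 3.49, 4.23 and 3.07 CPM with UA, against 2.92, 2.01, 0.906 and 1.93 CPM in controls. W02F12.2, of 272 residues, had 4.23, 2.58, 2.48 and 3.03 CPM with UA, against 2.19, 2.09, 1.49 and 2.38 CPM in controls. Between them lies *mtl-1*, a metallothionein gene, whose ratio was 1.18 and whose values overlapped between conditions.

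F58B4.5, of 423 residues, lies near F17C11.11 and had 15.6, 15.4, 11.5 and 12.2 CPM with UA, against 9.33, 8.50, 7.2 and 6.80 CPM in controls. F17C11.12, which lies between them and overlaps F58B4.5 on the opposite strand, had a ratio of 1.03. The last pair, on chromosome X, was K09C4.5 and K09C4.10. K09C4.10, of 1035 residues, had 12.7, 14.4, 13.1 and 14.6 CPM with UA, against 9.94, 10.3, 9.80 and 11.8 CPM in controls, and its ratio of 1.31 was far below the 2.77 of K09C4.5. K09C4.4, the neighbour of K09C4.5 with the same length of 524 residues, was all but absent from these libraries, at 0.0997 CPM.

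Protein-coding genes made up 87 of the 97, pseudogenes 9 (9.28%) and a long non-coding RNA, Y9D1A.1, 1. Pseudogenes were 4.67% of all genes known by sequence name at a mean CPM of at least 1. The pseudogene with the highest ratio, H10D12.2, had 3.91, 4.91, 3.17 and 3.96 CPM with UA, against 1.81, 1.87, 1.93 and 2.89 CPM in controls. F39E9.1 had 4.79, 3.81, 2.89 and 3.17 CPM with UA, against 2.85, 2.60, 1.21 and 2.12 CPM in controls. The lowest UA value of F39E9.1 thus barely exceeded its highest control value.

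Among the next pseudogenes, Y49E10.26 had 6.17, 8.37, 6.18 and 6.80 CPM with UA, against 3.20, 4.94, 5.13 and 5.18 CPM in controls. F52C6.12 had 2.57, 2.35, 2.39 and 2.35 CPM with UA, against 1.37, 1.64, 1.65 and 1.84 CPM in controls. F52C6.12 thus varied little between UA libraries. M151.4 had 2.85, 3.30, 2.36 and 2.98 CPM with UA, against 2.19, 1.78, 2.14 and 1.62 CPM in controls. Y9D1A.1 had 22.1, 25.1, 29.8 and 26.5 CPM with UA, against 17.9, 14.8, 19.8 and 21.2 CPM in controls. The coding genes among the 97 had a median length of 331 residues, with a range of 46 to 1137, and a median of 5 exons, against a median of 313 residues and 5 exons in all coding genes known by sequence name at a mean CPM of at least 1.

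A gene model at a mean CPM of at least 1 overlapped 17 of the 97 genes, in 16 cases on the opposite strand. In 10 of these 16 the partner held more counts than the unnamed gene. ZK742.4, at 2.01 CPM, overlaps *xpo-1*, a nuclear export receptor gene at 568 CPM. The ratios of the 16 opposite-strand partners were between 0.84 and 1.11, so that none of them met the rule. The libraries were stranded, but whether the counting used the strand is not stated, and the values of such pairs may therefore be mixed. F20B6.9 overlaps F20B6.7 on the same strand, and F20B6.7 had a ratio of 1.48.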

How the data were processed

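The deposited table holds raw counts per gene for 4 UA and 4 control libraries, without normalization. The authors made them by aligning filtered reads to WBcel235 with HISAT2 and counting with featureCounts 1.6.2. The methods of the study call them mapped fragments, whereas the column names call them read counts. Some genes, such as C40H1.8 and K09C4.5, had even counts in all 8 libraries. Whether both reads of a fragment were counted was not examined. The other column of the table is the summed exon length that the authors' counting wrote. Totals of 41890058 to 43055719 limit the precision mainly for genes with few counts. Symbols, types and positions came from RefSeq and residues and exons from Ensembl 115, both on WBcel235, and all 97 genes were matched. The members and lists were chosen with earlier results of these data known.

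CPM used the column totals and TPM the exon lengths. Genes kept by filterByExpr (13720) were TMM-scaled and compared by edgeR 4.0.16 (quasi-likelihood test, R 4.3.3), and p-values were adjusted by the Benjamini-Hochberg method. DESeq2, the tool of the study, was run in version 1.42.0 as an alternative, as were other scalings, filters, thresholds, the block, the split of replicates as a covariate, and leaving out each library. The test was tried on simulated data. Other steps used Python 3.11.15, numpy 2.4.6, pandas 2.3.3, scipy 1.17.1 and matplotlib 3.10.9. Libraries of the same number deviated together from their condition means (correlations 0.310, 0.246, 0.191 and 0.353), and the numbers were taken to pair the populations, which were propagated in parallel. Different numbers within replicates 1 and 2 or within 3 and 4 correlated at 0.15 to 0.333, in UA replicates 1 and 3 above the same number (0.333 with control replicate 2 and 0.311 with control replicate 4), so that the pairing cannot be told apart from that split. No library resampled another (chi-square per degree of freedom 7.56 to 58.4 within conditions).

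Genes were named by a rule: the 12 highest ratios, the 8 highest TPM, up to 12 neighbours within 10 kb, the 8 widest gaps, the genes next to each threshold, and the 5 pseudogenes or non-coding genes of highest ratio. C33D9.3, K09C4.10, W02F12.2, Y9D1A.1, ZK742.4 and F20B6.9 and the neighbours outside the 97 were named after their values were seen. Comparisons of protein and promoter sequences were planned but not run, and no sequences were used here.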

Additional observations from a re-analysis of the deposited data

Results flagged for a closer look

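In 6 of 86 groups of 4 libraries (named genes by condition), 1 library stood apart from the other 3 by Dixon's test. Chance flags about 1 in 20 groups only where the groups were not selected on their values. The values of these libraries chose the named genes, so the 6 of 86 cannot be read against that rate. The flagged groups are listed as a description only. C39E9.8 had 25.6 CPM in control replicate 3, against 56, 56.4 and 57.2 CPM in the other control libraries. F54D11.3 had 10.4 CPM in control replicate 3, against 8.53, 8.53 and 8.68 CPM in the others. H10D12.2 had 2.89 CPM in control replicate 4, against 1.81, 1.87 and 1.93 CPM, and Y49E10.26 had 3.20 CPM in control replicate 1, against 4.94, 5.13 and 5.18 CPM. Among UA libraries, F53B2.8 had 45.1 CPM in replicate 3, against 57.2, 57.7 and 57.7 CPM, and Y32G9A.13 had 1.4 CPM in replicate 4, against 1.12, 1.12 and 1.15 CPM.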

How the results depend on the processing

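The count of 97 genes became 39 at a mean CPM of at least 5, 164 with no minimum, 48 at a ratio of at least 1.5, and 105 to 154 with 1 library left out (149 without UA replicate 4 and 154 without control replicate 4). The other settings gave 94 to 137. With the replicate number as a block, each UA value only had to exceed the control value of its own number. By that rule 203 genes were found. All 97 were among them by construction, since each of their UA values exceeds each of their control values. At an adjusted p under 0.05, edgeR called 3 of the 97 genes, 16 with the replicate block, 13 without the filter on low counts, 30 with the split of replicates 1 and 2 against 3 and 4 as a covariate, and 0 to 3 with 1 library left out, while DESeq2 called 38. Over all genes tested, edgeR called 13 genes, 115 with the replicate block, 45 without the filter, 219 with the covariate and 5 to 16 with 1 library left out, while DESeq2 called 169. The cause of these differences was not tested. The block moved the count at the study's thresholds by less than 1.5 times. The direction of the 97 genes was fixed by their choice and says nothing about stability. Low counts limit the ratios of the weakest genes.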
